A study of Mus musculus with 6 samples.

Results

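The genes of the proteasome were followed in mouse biliary epithelial cells that had kept or lost their primary cilia. The set held the protein-coding genes whose mouse symbol is Psm, a letter from a to g and digits, without the immunoproteasome genes Psmb8, Psmb9 and Psmb10, plus Pomp and Adrm1. This rule used no measured value and took 47 of the 32061 genes listed. By known role, 16 encode subunits of the core particle, 18 subunits of the regulatory particle, 4 activators, 1 an inhibitor and 8 assembly factors. A filter on low counts passed 45 of the 47. The others were Psmb11, a beta subunit of the thymus, with 0 counts in every sample, and Psma8, an alpha subunit of the testis, with 1 count in depleted replicate 3 and 0 elsewhere. Levels are given in CPM, counts scaled to a common library size. A limit of 3 counts equalled between 0.0797 and 0.119 CPM in these libraries, which covers counting error only.

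Poly-A RNA was sequenced from 6 samples of biliary epithelial cells, which form the wall of bile ducts. Ducts were picked from mouse liver, expanded as organoids in Matrigel and then moved to flat culture on collagen. The 3 samples labelled PC competent were marked as without 4OHT and the 3 labelled PC depleted as with it. Tamoxifen-dependent Cre enzymes are commonly switched on with 4OHT (4-hydroxytamoxifen), and the primary cilium is an antenna-like organelle. For the deleted gene, the driver of any Cre and the strain, age and sex of the mice, nothing is given in the labels. 4OHT and loss of cilia coincided in every sample and cannot be told apart. The labels also leave unsaid if replicates are different animals or cultures, so the p-values speak of the scatter among these 6 samples, part or all of which may be technical.

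Libraries held 26293486 to 36998935 counts. All 10 biliary markers examined were detected in both groups, with Krt7, Krt8 and Krt18 at group means of 2471 to 5429 CPM, although Krt19, another defining keratin of bile ducts, stood at only 8.33 to 12.5 CPM as group means. Summed biliary markers ranged from 16580 to 17570 CPM in competent and from 15620 to 17030 CPM in depleted samples. Summed markers of endothelium were at most 0.499 CPM and those of mesenchyme at most 3.96 CPM. The 8 hepatocyte markers summed to 91.3 to 142 CPM in competent and 212 to 252 CPM in depleted samples, of which Apob made up most, while Cyp3a11 was at 0 in every sample and Cyp2e1 and Tat did not exceed 3 counts in any. The 8 leukocyte markers summed to 50.6 to 50.9 and 45.7 to 51.4 CPM, most of it Csf1r, with Adgre1, Cd3e, Clec4f and Lyz2 at no more than 3 counts in any sample.

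The proteasome is the protease complex that degrades proteins tagged with ubiquitin. Its core particle, the 20S, is a stack of rings of alpha and beta subunits, and 3 of the beta subunits carry the proteolytic sites. A regulatory particle, the 19S, caps the core. The lid of this cap removes ubiquitin, while its base binds the substrate and unfolds it with a ring of ATPases. Other caps, the activators, open the core without ATP. Dedicated chaperones build the rings and leave the finished particle.

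Proteasome mRNAs were broadly lower in the depleted cells. Of the 45 genes tested, 41 fell, 1 rose and 3 did not pass the threshold, an adjusted p below 0.05 in edgeR's quasi-likelihood test over all genes, which 69.2% of all genes passed in either direction. That is 91.1% of the tested members lower, where 34.3% of all 13839 genes tested were called lower, and 2.22% higher, where 34.9% were called higher. The median log2 change of the tested members, depleted over competent, was -0.58, against -0.0057 for all genes tested. Values of the 3 depleted samples lay wholly below those of the competent samples for 42 members (36.1% of all genes tested did so) and wholly above for 2 (36.4%), while 72.5% of all genes had groups apart in either direction. Falls beyond 1.5-fold were seen for 21 members (11.6% of all genes tested) and such rises for 0 (16.9%). In sum the members took 0.493% to 0.508% of the scaled counts in competent samples and 0.362% to 0.380% in depleted samples. Fewer cells with the mRNA and less mRNA per cell cannot be told apart in these bulk samples. Replicates were close, with a median coefficient of variation over members of 3.06% in competent and 3.83% in depleted samples.

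**Figure D1:**
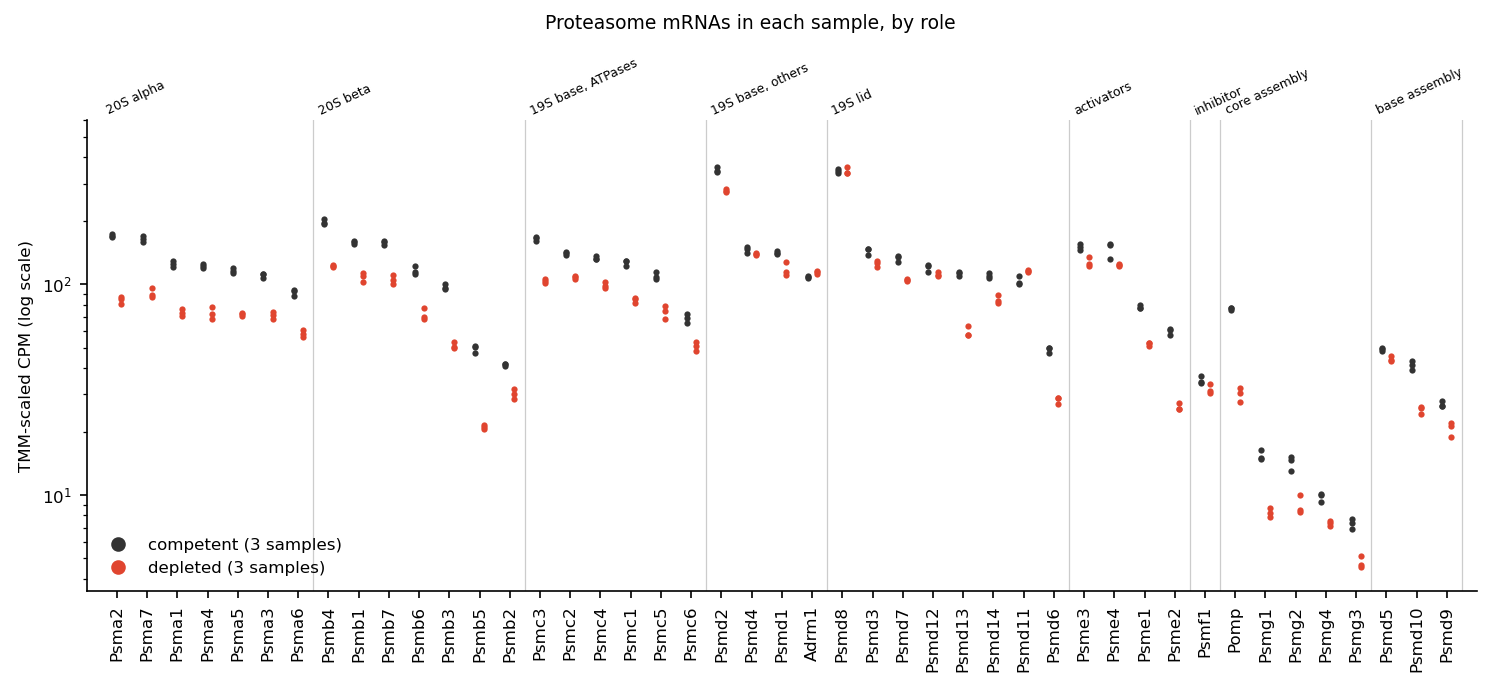
TMM-scaled CPM on a log axis for each of the 45 tested proteasome genes, grouped by role, with a point for each of the 3 competent (black) and 3 depleted (red) samples. The red points lie below the black ones in nearly every column, the exceptions being Psmd8, where the groups overlap, and Adrm1 and Psmd11, where the red points lie above.

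Promoter sequence is given as description only, and a link between it and the changes was not tested. RefSeq promoter windows (GRCm38.p6) of 300 bases, from 250 bases before the gene start to 50 after it, were matched by symbol for 39 of the 47 members. Exact matches were sought on both strands. The sequence CCGGAAGTG, a core site of ETS-family factors, occurred in 5 of the 39 members (12.8%) and in 2.25% of all 27025 genes with a window. These were the assembly gene Pomp, the regulatory genes Psmc1, Psmc2 and Psmd13 and the activator gene Psme4, and in 0 of 12 core genes. The sequence TGANNNNGC, the core of the antioxidant response element that NRF1 and NRF2 bind, occurred in 22 of 39 (56.4%, against 45.0% of all genes), among them 9 of 12 core and 7 of 15 regulatory genes. The longer TGACTCAGC occurred in 0 members and in 0.503% of all genes, and CCAAT, the site of NF-Y, in 35.9% of members and 41.1% of all genes. TGACTCAGC is itself a form of TGANNNNGC. Capitals mark the match, read on the strand of the gene from 5′ to 3′, and CACTTCCGG is the same ETS core on the other strand. The first 5 windows are all ETS matches among the members. The last 2 show the antioxidant core in Psmb5 and Psme2, examples from the 22 members that have it. Both fell far, but that core also occurred in Adrm1 and Psmd8, which did not pass. It did not occur in Pomp, which fell most.
Pomp (chr5:147860552-147860610, plus strand): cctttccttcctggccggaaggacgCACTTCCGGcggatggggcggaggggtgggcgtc
Psmc1 (chr12:100110147-100110201, plus strand): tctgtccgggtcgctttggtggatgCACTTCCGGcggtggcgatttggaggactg
Psmc2 (chr5:21785164-21785222, plus strand): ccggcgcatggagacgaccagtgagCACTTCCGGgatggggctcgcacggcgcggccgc
Psmd13 (chr7:140882378-140882406, plus strand): gcccgcggtgCCGGAAGTGagcgagcact
Psme4 (chr11:30771697-30771755, plus strand): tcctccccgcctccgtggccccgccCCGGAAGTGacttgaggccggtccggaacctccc
Psmb5 (chr14:54618009-54618067, minus strand): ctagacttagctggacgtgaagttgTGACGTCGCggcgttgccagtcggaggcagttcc
Psme2 (chr14:55591055-55591113, minus strand): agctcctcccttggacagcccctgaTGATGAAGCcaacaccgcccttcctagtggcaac
The 5 genes with the ETS core had log2 changes from -1.34 (Pomp) to -0.25 (Psme4), which spans most of the range of the members.

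The alpha subunits form the outer rings of the core and the gate through which substrates enter. All 7 tested fell, each beyond 1.5-fold (11.6% of all genes tested did so), with log2 changes between -1.01 and -0.63. Psma2 (GRCm38 chromosome 13, 14613240 to 14674236) had 173, 168 and 170 CPM in the competent samples and 80.7, 85.2 and 87.0 CPM in the depleted samples. The groups were far apart, and Psma2 was 2.02-fold lower (log2 change -1.01, SE 0.043, adjusted p = 2.33e-10). Psma7 (chromosome 2, 180036374 to 180042433) stood at 159, 164 and 170 CPM in competent and 86.7, 88.5 and 96.4 CPM in depleted samples. Its fall was 1.81-fold (log2 change -0.86, SE 0.048, adjusted p = 4.05e-09). The other 5, Psma1, Psma3, Psma4, Psma5 and Psma6, were 1.54-fold to 1.70-fold lower. Their lowest competent sample, Psma6 at 88.2 CPM, stood well above its highest depleted sample at 61.0 CPM. None of the 5 had groups that overlapped, and 36.1% of all genes tested lay wholly lower.

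The beta subunits form the inner rings. All 7 tested fell, where 34.3% of all genes tested were called lower, with log2 changes between -1.23 and -0.46. Psmb5 (chromosome 14, 54614119 to 54618022), which carries the chymotrypsin-like site and is the main target of the drug bortezomib, had 50.1, 47.1 and 50.8 CPM in competent samples and 20.5, 21.04 and 21.4 CPM in depleted samples. The depleted values lay within a narrow band far below the competent ones, a 2.35-fold fall (log2 change -1.23, SE 0.053, adjusted p = 2.70e-10). Of its exon length, 12.1% lies under exons of another gene on the same strand, where counting can drop or split reads. Psmb6 (chromosome 11, 70525367 to 70527858), with the caspase-like site, had 123, 112 and 114 CPM against 69.9, 68.5 and 77.0 CPM. Psmb6 was thus 1.62-fold lower (log2 change -0.69, SE 0.053, adjusted p = 7.82e-08). Psmb7 (chromosome 2, 38588036 to 38644087), with the trypsin-like site, had 161, 154 and 158 CPM against 99.99, 105 and 111 CPM (log2 change -0.58, SE 0.046, adjusted p = 1.03e-07), and 11.8% of its merged exon length lies under exons on the opposite strand. Transcripts of another gene, Nek6, matched 35.1% of the main transcript of Psmb7, at up to 100% identity. The intervals of Psmb6 and Psmb7 overlapped each other (95%, -0.81 to -0.58 and -0.68 to -0.48), whereas that of Psmb5, -1.35 to -1.12, lay below both. No test of the difference between genes was made. Among the noncatalytic subunits Psmb3 fell most, from 100.2, 96.1 and 94.96 CPM to 49.8, 50.3 and 53.3 CPM, a 1.90-fold difference (adjusted p = 1.15e-09). Psmb4 and Psmb1 were 1.61-fold and 1.46-fold lower. Psmb2 moved least of the core genes, with 41.8, 41.6 and 40.9 CPM against 31.8, 28.5 and 30.3 CPM (log2 change -0.46, adjusted p = 3.59e-06).

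The base of the regulatory particle holds the ATPases Psmc1 to Psmc6, and all 6 fell. Their log2 changes lay between -0.66 (Psmc3) and -0.39 (Psmc2), or 1.58-fold to 1.31-fold. Psmc3 had 167, 161 and 166 CPM in competent and 102, 104 and 106 CPM in depleted samples, and Psmc2 had 143, 138 and 141 against 105, 108 and 109 CPM. For all 6 ATPase genes the depleted samples lay wholly below the competent ones, as for 36.1% of all genes tested. The other base members behaved less uniformly. The scaffold genes Psmd2 and Psmd1 fell by 0.32 and 0.26 on the log2 scale (adjusted p = 1.05e-05 and 0.000547). Psmd4 and Adrm1, which encode ubiquitin receptors, did not pass. Psmd4 had 150, 141 and 148 CPM against 139, 137 and 140 CPM (log2 change -0.08, 95% interval -0.16 to 0.01, adjusted p = 0.1096). Adrm1 had 107, 110 and 109 against 116, 112 and 115 CPM (log2 change 0.07, 95% interval -0.01 to 0.16, adjusted p = 0.117). For Psmd4 the call turned with upper-quartile scaling (log2 change -0.13, adjusted p = 0.0146) and without competent replicate 2 (-0.11, adjusted p = 0.0470). Adrm1 has a near-identical listed copy, Gm9774, which matched 88.5% of its transcript at 95% identity or more and held 20.6% as many counts. The best matching stretch was 100% identical. With that copy added, the log2 change of Adrm1 was 0.07 (adjusted p = 0.0995).

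The lid held the widest range of the regulatory particle. Of 8 genes, 6 fell, 1 rose and 1 did not pass, where 34.3% of all genes tested were called lower and 34.9% higher. Psmd13 (chromosome 7, 140881968 to 140898643), a structural subunit, had 114, 110 and 113 CPM in competent and 57.6, 57.2 and 63.2 CPM in depleted samples. Its 1.89-fold fall (log2 change -0.92, SE 0.048, adjusted p = 1.87e-09) was the largest of the regulatory particle. Exons of another gene on the opposite strand cover 10.1% of its exon length, and although the library kit marks strand, whether the counting used it was not given in the sources used here. Psmd6 followed, with 49.9, 46.9 and 49.9 against 27.1, 28.9 and 29.0 CPM (log2 change -0.78, adjusted p = 1.75e-08). Psmd14, the deubiquitinase of the lid, had 113, 108 and 110 against 81.1, 83.5 and 88.9 CPM (log2 change -0.38, adjusted p = 5.61e-06). Psmd7, its partner in the lid, was 1.27-fold lower and Psmd3 1.15-fold lower. Psmd12 fell by 0.11 on the log2 scale (adjusted p = 0.0410), but this call was lost with DESeq2 (adjusted p = 0.0710), without competent replicate 1 (0.0886), competent replicate 3 (0.126), depleted replicate 1 (0.0887) or depleted replicate 2 (0.145), where log2 changes were -0.10, -0.10, -0.09, -0.10 and -0.09. Psmd8 had 353, 336 and 344 CPM against 339, 336 and 361 CPM. The groups overlapped, and the 95% interval of its log2 change ran from -0.09 to 0.10. Psmd11 (chromosome 11, 80428615 to 80473248), the subunit that clamps the lid to the core, alone among the members rose, from 110, 101 and 100 CPM to 116, 114 and 117 CPM (log2 change 0.16, SE 0.045, adjusted p = 0.00582).

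Activators cap the core in place of the regulatory particle. All 4 genes fell, where 34.3% of all genes tested were called lower, and Psme2 fell by most. With the trend of transcript length removed, as described with the lengths, the log2 changes were -0.88 for Psme2, -0.48 for Psme4, -0.28 for Psme1 and -0.27 for Psme3, so the order of the others depended on that step. Psme1 and Psme2 encode the subunits of PA28, an interferon-inducible ring linked to peptide production for antigen presentation. Psme2 (chromosome 14, 55587441 to 55591113) had 60.7, 61.1 and 57.2 CPM in competent and 27.3, 25.5 and 25.5 CPM in depleted samples, a 2.29-fold fall (log2 change -1.19, SE 0.052, adjusted p = 3.32e-10). Its near-copy Psme2b held 5.17% as many counts, and with these added the log2 change was -1.17. Psme1 had 77.0, 80.0 and 76.8 against 50.9, 52.4 and 52.7 CPM (log2 change -0.58, SE 0.044, adjusted p = 5.92e-08). Both genes lie on chromosome 14. Their intervals of log2 change, -1.31 to -1.08 and -0.68 to -0.49, did not overlap, and no test of the difference was made. Psme3, a nuclear activator, had 151, 145 and 156 against 125, 123 and 134 CPM (log2 change -0.24, adjusted p = 0.000370). Psme4, the large nuclear activator PA200, had 132, 156 and 154 against 125, 122 and 123 CPM (log2 change -0.25, adjusted p = 0.00145), and competent replicate 1 stood nearer to the depleted samples than to its own group. Psmf1, first described as an inhibitor of the core, had 36.9, 34.0 and 34.5 against 30.6, 31.1 and 33.8 CPM (log2 change -0.14, adjusted p = 0.0422). That call was lost with DESeq2 (adjusted p = 0.0826), without competent replicate 1 (0.148) or 3 (0.0532) and without depleted replicate 1 (0.136) or 2 (0.141), with log2 changes of -0.14, -0.11, -0.16, -0.11 and -0.12.

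Of the assembly factors all 8 fell, and the largest fall of any member was among them. Pomp (chromosome 5, 147860461 to 147876456) encodes the maturation protein that guides beta subunits into the core and is degraded when the particle is complete. Pomp had 76.9, 75.4 and 77.5 CPM in competent and 27.6, 30.6 and 32.1 CPM in depleted samples, a 2.54-fold fall (log2 change -1.34, SE 0.056, adjusted p = 2.06e-10). Psmg1 to Psmg4 encode the chaperones that assemble the alpha ring, working as the pairs Psmg1 with Psmg2 and Psmg3 with Psmg4. Psmg1 had 14.9, 16.3 and 14.9 against 8.72, 7.86 and 8.21 CPM (log2 change -0.90, SE 0.080, adjusted p = 3.36e-07). Psmg2 had 14.6, 13.0 and 15.1 against 8.32, 8.51 and 10.0 CPM (log2 change -0.66, adjusted p = 2.78e-05). Of the second pair, Psmg3 had 6.90, 7.33 and 7.67 against 4.56, 4.64 and 5.15 CPM (log2 change -0.61) and Psmg4 had 10.1, 9.96 and 9.27 against 7.09, 7.36 and 7.56 CPM (log2 change -0.41, adjusted p = 0.000912). None of these 4 had groups that overlapped, where 36.1% of all genes tested lay wholly lower in depleted samples. Psmd5, Psmd9 and Psmd10 encode chaperones of the base. Psmd10, also known as gankyrin, had 43.3, 39.3 and 41.4 against 26.1, 24.3 and 25.9 CPM (log2 change -0.70, SE 0.056, adjusted p = 1.03e-07). Psmd9 had 27.8, 26.4 and 26.5 against 21.2, 18.9 and 21.9 CPM (log2 change -0.38), and exons on the opposite strand cover 25.5% of its exon length. Psmd5 had 49.8, 48.5 and 49.5 against 43.1, 43.6 and 45.7 CPM (log2 change -0.16, adjusted p = 0.00847).

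**Figure D2:**
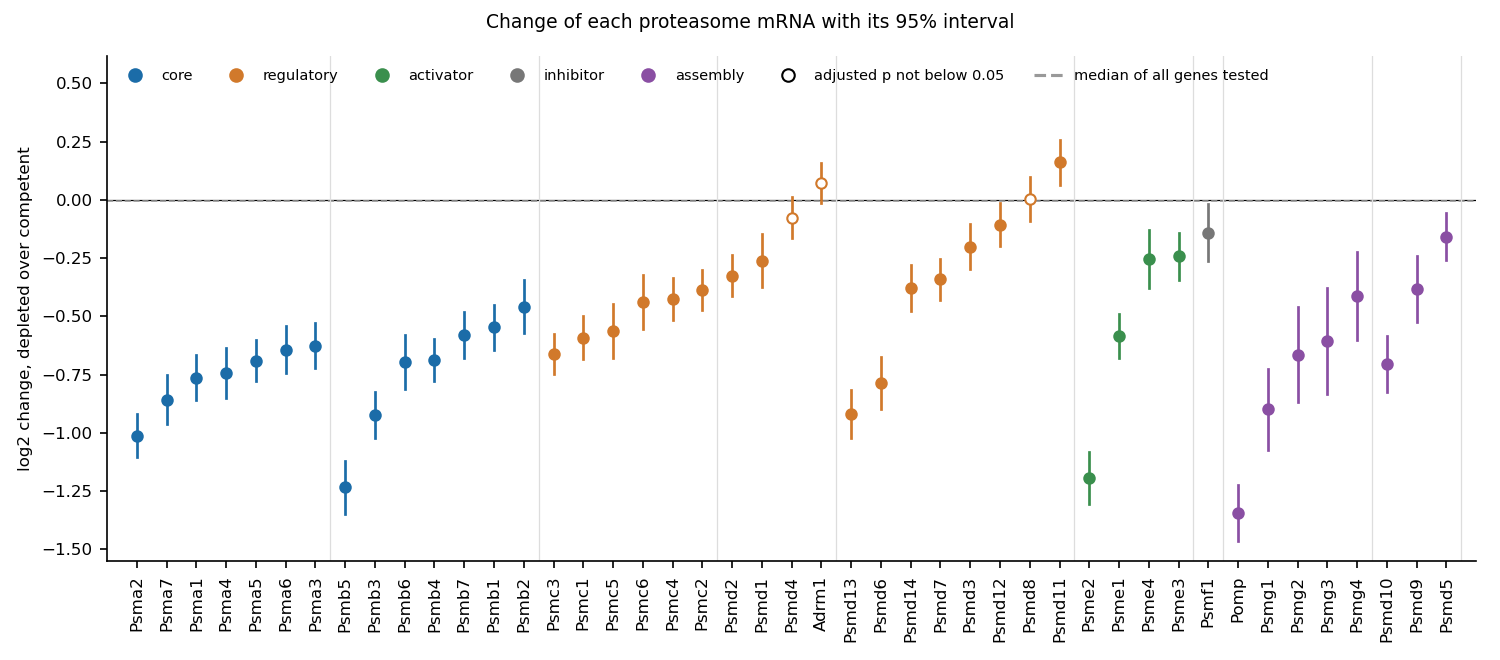
Fitted log2 change, depleted over competent (vertical axis), of each tested proteasome gene with its 95% interval, coloured by particle. Filled points passed an adjusted p of 0.05 and open points did not. Every core, activator and assembly gene lies below 0, Pomp lowest at -1.34, and the open points are Psmd4, Adrm1 and Psmd8 of the regulatory particle.

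Particles were then compared as a whole. The median log2 change was -0.69 over the 14 core genes tested, -0.36 over the 18 regulatory genes, -0.42 over the 4 activator genes and -0.63 over the 8 assembly genes. The 14 core genes summed to 1745, 1679 and 1723 CPM in competent and 1006, 1021 and 1073 CPM in depleted samples, a ratio of group means of 0.602. Regulatory genes summed to 2636, 2543 and 2633 against 2114, 2116 and 2201 CPM, a ratio of 0.823. For activators the sums were 420, 442 and 444 against 328, 323 and 335 CPM, a ratio of 0.755, and for assembly factors 244, 236 and 242 against 147, 146 and 157 CPM, a ratio of 0.622. Depleted samples were lower than every competent sample in all 4 sums. Within a sample the balance between particles does not depend on library scaling. Regulatory over core mRNA was 1.51, 1.51 and 1.53 in competent and 2.10, 2.07 and 2.05 in depleted samples, 1.37 times as high. Activator over core was 0.241, 0.263 and 0.257 against 0.326, 0.316 and 0.313, 1.25 times as high. Neither ratio is corrected for transcript length. With the length trend removed the median log2 changes were -0.43 for core, -0.21 for regulatory and -0.38 for activator genes. Regulatory and activator medians then lay closer to that of the core than the -0.36, -0.42 and -0.69 above. Assembly over core moved little, at 0.140, 0.141 and 0.140 against 0.146, 0.143 and 0.146. These sums weight abundant genes most. They are given without a p-value, since the members were chosen with earlier results known.

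**Figure D3:**
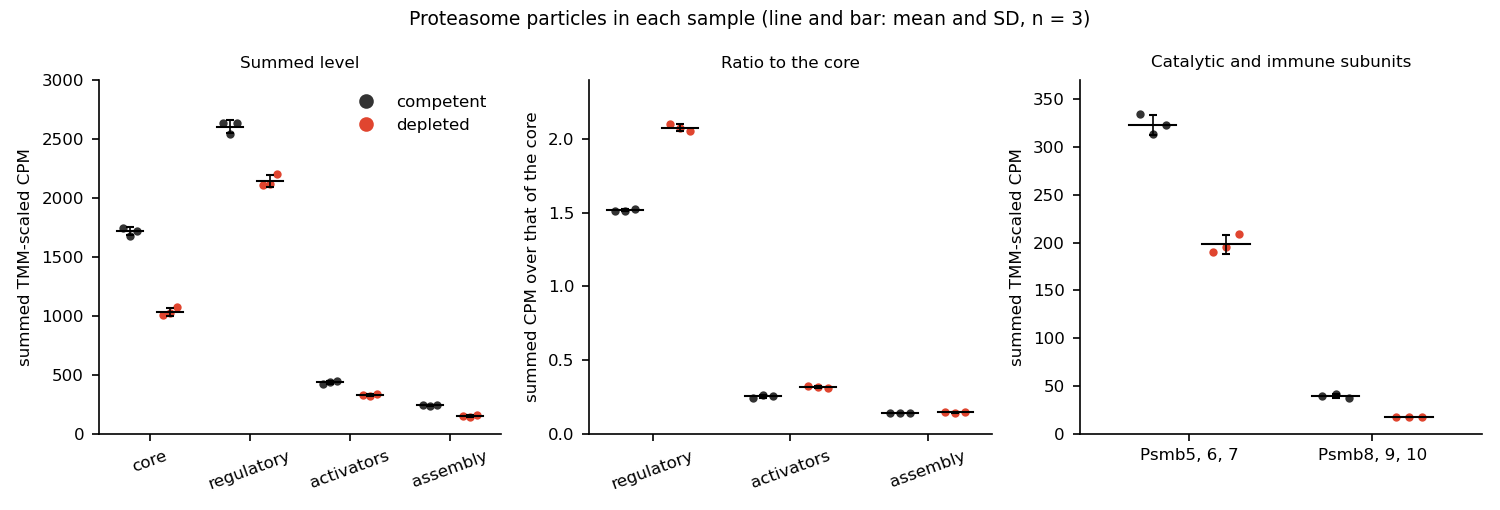
Left, summed TMM-scaled CPM of each particle. Middle, the summed CPM of the other particles over that of the core. Right, summed CPM of the catalytic genes and of their immunoproteasome counterparts. Points are samples, lines and bars the mean and SD of 3. Regulatory over core moved from about 1.52 to 2.08, while assembly over core was 0.140 and 0.145.

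Levels of different genes were set side by side per kilobase of merged exon length. In competent cells the 14 core genes had a median level of 48.9 CPM per kilobase, from 28.3 (Psma3) to 101 (Psmb4), a 3.57-fold range. The 18 regulatory genes spanned 6.95-fold, from 16.2 (Psmd11) to 113 (Psmd8), with a median of 42.2. The assembly factors were lower, with a median of 9.81 CPM per kilobase and a range from 2.52 (Psmg3) to 28.1 (Psmd10). In depleted cells the median of the core was 27.3 and that of the regulatory genes 34.9 CPM per kilobase, so their order was turned. The spread among core genes hardly moved, with an SD of log2 level of 0.521 in competent and 0.531 in depleted cells. Per kilobase of the main transcript the core medians were 98.7 and 61.4 and the regulatory medians 75.1 and 58.4, so with that length the order was not turned.

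The length of the transcripts moved with the change. Across the libraries genes with short transcripts were lower in depleted cells, and proteasome transcripts are short, with a median main transcript of 1535 nt among the tested members against 3032 nt over all protein-coding genes tested. Spearman's rho between length and log2 change was 0.515 over the 45 members, which share libraries, and 0.338 over the 12793 protein-coding genes. At the members' lengths the trend of all genes ran from -0.34 to 0.23 on the log2 scale, with a median of -0.21. With the trend removed, 39 members fell, where 35.1% of all genes did, 4 rose, where 33.8% did, and 2 did not pass. The median log2 change became -0.37, with -0.43 for the core, -0.21 for the regulatory, -0.38 for the activator and -0.38 for the assembly genes. All 14 core genes still fell, from -1.07 (Psma2) to -0.14 (Psmb2, adjusted p = 0.0415), and Pomp (-1.14), Psmb5 (-0.91), Psme2 (-0.88) and Psmd13 (-0.82) kept large falls. The 4 that rose were Adrm1 (0.29, adjusted p = 6.28e-06), Psmd8 (0.22, adjusted p = 9.45e-05), Psmd4 (0.18, adjusted p = 0.000343) and Psmd11 (0.11, adjusted p = 0.0232), all of the regulatory particle. Psmd12 (0.01) and Psmg4 (-0.08, adjusted p = 0.426) no longer passed. The correction rests on the transcript taken as the main one, which for Psma2 is 2911 nt and for Psma3 2846 nt, the longest of the tested core genes.

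**Figure D4:**
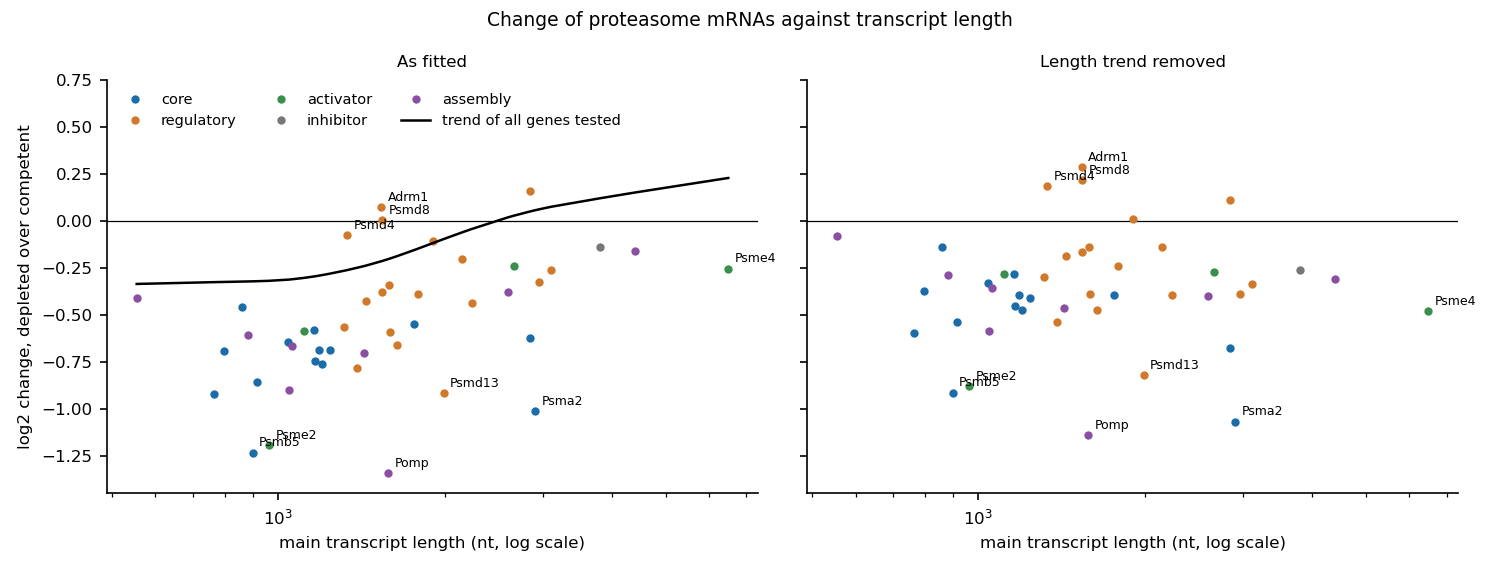
Log2 change, depleted over competent, of the tested proteasome genes against the length of the main transcript on a log axis, as fitted (left) and with the length trend removed (right). The black line is the trend of all genes tested at these lengths, from -0.34 to 0.23. Most members lie below the line, and Pomp, Psma2, Psmb5, Psme2 and Psmd13 remain between -1.14 and -0.82 on the right.

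Immunoproteasome subunits, which replace the catalytic ones under interferon, are not members but are made of the same kind of subunit. All 3 fell, where 34.3% of all genes tested were called lower. Psmb10, the counterpart of Psmb7, had 30.9, 31.2 and 30.1 CPM in competent and 13.1, 12.6 and 12.9 CPM in depleted samples (log2 change -1.26, adjusted p = 5.61e-10). Psmb8, the counterpart of Psmb5, had 5.78, 7.87 and 4.22 against 3.29, 3.18 and 3.20 CPM (log2 change -0.88), and Psmb9, the counterpart of Psmb6, had 2.41, 2.49 and 2.71 against 1.39, 1.37 and 1.73 CPM (log2 change -0.75). The summed immune subunits stood at 0.117, 0.133 and 0.115 of the summed catalytic ones in competent and 0.0932, 0.0878 and 0.0852 in depleted samples. Both kinds of subunit were lower, and the summed immune share was lower too. Most of the immune sum was Psmb10. Its group means were 30.7 of 39.2 CPM in competent and 12.8 of 17.6 CPM in depleted samples. The counterparts differed. Psmb10 fell further than Psmb7 (log2 change -0.58) and Psmb9 about as far as Psmb6 (-0.69). Psmb8 fell less than Psmb5 (-1.23). No test of the difference between genes was made.

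Other genes of the pathway moved in both directions, as did all genes tested, of which 34.9% rose and 34.3% fell. With at most 7 genes in a list, nothing particular to a list is read from its counts. Of the genes that encode ubiquitin, a pair is described. Ubb, a polyubiquitin gene, rose and had group means of 2635 and 3343 CPM, with groups that did not overlap (log2 change 0.34, adjusted p = 1.38e-05). Rps27a, a fusion of ubiquitin with a ribosomal protein, had 455, 454 and 465 against 386, 414 and 437 CPM (log2 change -0.15, adjusted p = 0.0132), a call lost without depleted replicate 1 (-0.11, adjusted p = 0.0565) and turned with the length trend removed (0.17, adjusted p = 0.00099). Of 7 genes whose products bind the proteasome, 2 rose, 4 fell and 1, Txnl1, did not pass. With the length trend removed the counts were equal, but Txnl1 fell (-0.25) and Uchl5 did not pass (-0.02). Zfand5, a proteasome activator of the zinc-finger type, had 196, 184 and 189 against 437, 445 and 456 CPM (log2 change 1.23, adjusted p = 3.54e-11), and Ecpas, which tethers core and cap, had 152, 166 and 168 against 243, 249 and 234 CPM (log2 change 0.58). Sem1, the small lid subunit that the symbol rule leaves out, fell like most of the lid, from 88.3, 85.8 and 86.6 to 60.1, 58.6 and 60.8 CPM (log2 change -0.54, adjusted p = 8.84e-08).

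NRF1, encoded by Nfe2l1, is the transcription factor that raises proteasome genes when proteasome activity is low, after release from the endoplasmic reticulum and cleavage. Of the 6 genes of this axis, 3 rose, 2 fell and 1 did not pass. With the length trend removed 1 rose, Ngly1. Nploc4 (log2 change 0.13, adjusted p = 0.0128) then had -0.0068 (adjusted p = 0.885), and its call was also lost with upper-quartile scaling (0.08, adjusted p = 0.0955) and without competent replicate 1 (0.10, adjusted p = 0.0559). Nfe2l1 had 356, 376 and 364 CPM in competent and 299.9, 299 and 283 CPM in depleted samples (log2 change -0.31, adjusted p = 2.11e-05). Ddi2, the protease that cleaves NRF1, had 34.5, 33.3 and 35.8 against 40.0, 46.9 and 41.1 CPM (log2 change 0.30, adjusted p = 0.000705), but with the length trend removed its log2 change was -0.0039 (adjusted p = 0.960). Ngly1, which removes its sugar chains, had 11.8, 11.2 and 12.6 against 14.8, 13.7 and 14.5 CPM (log2 change 0.27). The mRNA of a factor says nothing of its activity, which was not measured. Of 5 genes described for ubiquitin activation and shuttling, 2 rose, 2 fell and 1 did not pass. The rise of Rad23b (0.15, adjusted p = 0.00667) was lost with upper-quartile scaling (0.10, adjusted p = 0.0522) and after removal of the length trend (0.03, adjusted p = 0.565). Uba1, which did not pass (-0.07, adjusted p = 0.127), was called lower under both (-0.12, adjusted p = 0.0146, and -0.21, adjusted p = 0.000164), which gives 1 higher and 3 lower. Ubqln1, a ubiquilin, had 188, 179 and 182 against 152, 155 and 157 CPM (log2 change -0.24). Its relative Ubqln2 had 77.7, 73.6 and 80.8 against 90.6, 89.4 and 91.2 CPM (log2 change 0.22), and Ubqln4 had 91.4, 88.4 and 84.6 against 78.4, 74.2 and 77.8 CPM (log2 change -0.20). The ubiquilins thus did not move as one.

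**Figure D5:**
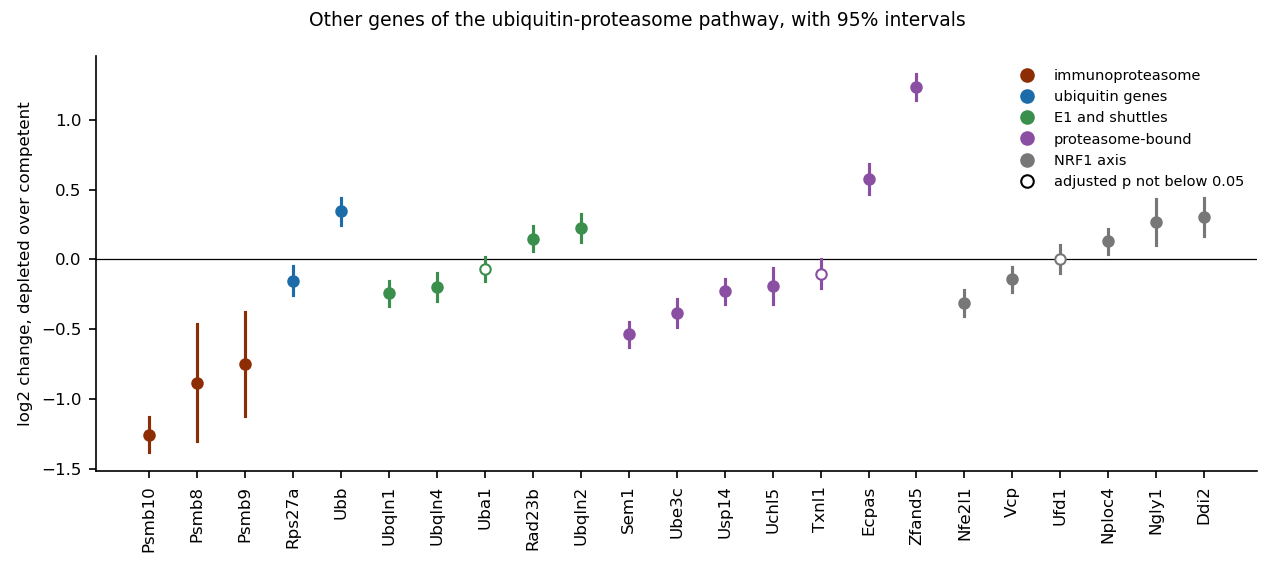
Fitted log2 change, depleted over competent (vertical axis), with 95% intervals, of other genes of the ubiquitin-proteasome pathway, coloured by list. Open points did not pass an adjusted p of 0.05. Zfand5 at 1.23 and Ecpas at 0.58 stand above the rest, and the 3 immunoproteasome genes lie between -1.26 and -0.75.

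Adding the counts of listed near-identical copies changed the other members little. Of the tested members, 7 had a listed gene matching over 50% of their main transcript at 95% identity or more. With the counts of these copies added, the same 42 members passed in the same direction. Copies that are not among the listed genes could not be added. An example is A730017L22Rik, which matched 52.7% of the main transcript of Psmd11. For Psmb5, whose pseudogene Gm3375 held 9.53% as many counts, the log2 change became -1.21, and for Psma5, with Gm8394 at 4.68%, it became -0.68.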

How the data were processed

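The authors deposited unnormalized read counts per gene. GRCm38, STAR 2.7.1a and featureCounts are named in the submitters' processing notes, as are DESeq2 1.34.0, cutadapt 1.16, MultiQC 1.3 and FastQC 0.11.9. Annotation and strand setting: not given in the sources used here. Columns named WT were taken as competent and KO as depleted, by replicate number; 0 columns belonged to other samples. Symbols, coordinates and lengths came from GENCODE M21 (GRCm38), which held 32009 of the 32061 identifiers; the main transcript was the longest tagged as principal. All 6 samples were fitted with edgeR 4.0.16 (R 4.3.3): filterByExpr, TMM, quasi-likelihood F-test, two-sided, Benjamini-Hochberg over 13839 genes. The fit was also run on simulated counts with few changed genes and no length trend. These data differ in both, so that run says little about the calls here. CPM are scaled by TMM. Alternatives were other scalings, DESeq2 1.42.0, limma-voom (limma 3.58.1), other filters and thresholds, a replicate block, leaving out each sample, and a loess length trend per library as offsets; adding near-copies was chosen after seeing the data. Full values were given for the catalytic genes, the 8 largest rises and falls and all activator and assembly genes, and up to 3 genes of each pathway list; others named were chosen after their values were seen. Members and lists were chosen with earlier results of these data known. No replicate pair agreed within sampling noise (chi-square per degree of freedom 5.56 to 9.92). Some pathway genes of the lists are not reported here.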

Additional observations from a re-analysis of the deposited data

How the results depend on the processing

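The number of members lower in depleted cells stayed between 39 and 42, and that of members higher at 1, under RLE and upper-quartile scaling, DESeq2, limma-voom, both other filters, the replicate block, an adjusted p below 0.01, added near-copies and the omission of each sample in turn. Leaving out each sample gave 8929 to 9333 genes called in all and a median log2 change of the members of -0.60 to -0.54. With an adjusted p below 0.05 and over 1.5-fold, 3936 genes were called, and 21 members were lower and 0 higher. With the length trend removed, 4 members were higher, and the medians were -0.37 for all members, -0.43 for core, -0.21 for regulatory and -0.38 for assembly genes. With that setting Psmd4 (0.18), Psmd12 (0.0106), Rps27a (0.17), Ddi2 (-0.0039) and Nploc4 (-0.0068) changed sign. Upper-quartile scaling, which moved the median of all genes from -0.0057 to -0.0561, gave a regulatory median of -0.41 and turned Psmd8 (-0.0459) and Ufd1 (-0.0461), neither of which passed. Without a filter Psmd8 (-0.0035) and Ufd1 (-0.0033) also changed sign. On leaving out samples Psmd8 ranged from -0.0282 to 0.024 and Ufd1 from -0.0305 to 0.0273. Same-numbered samples showed no shared shift, with correlations of -0.0278, 0.0133 and -0.0155 between their deviations from the group means. With 3 samples a group this cannot decide if they were paired, which the labels leave unsaid. With the replicate block 9526 genes were called, against 9576, and 41 members were lower and 1 higher, with a median log2 change of -0.58. Standard errors of the members' log2 changes ran from 0.0392 (Adrm1) to 0.106 (Psmg3, the least abundant), which limits what 3 samples a group can resolve. The cause of these shifts was not tested.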
